A study of Danio rerio with 2 samples.

Results

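The Hox cluster genes are the homeobox genes that lie side by side in the Hox clusters, and here they were taken as every gene whose symbol was hox with a cluster letter from a to d and a number from 1 to 13. Of the 32520 gene identifiers in the count tables, 48 met this rule. They comprised 11 Hox A, 15 Hox B, 15 Hox C and 7 Hox D genes. RefSeq listed 49 such genes in zebrafish, and *hoxa4a* was not analysed here.

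Hox genes encode transcription factors that give cells a position along the head-to-tail axis. Genes of low number (paralog groups 1 to 3) act toward the head, and those of high number (groups 9 to 13) act in the caudal trunk, the fins and the tail, in the same order as they lie in the cluster. Zebrafish keep 7 clusters after a genome duplication, so that many genes have an a and a b copy. Hox proteins bind DNA together with TALE homeodomain cofactors of the Pbx and Meis families, Polycomb proteins keep Hox genes silent, and Trithorax proteins such as Kmt2a (MLL) keep them active. In mammalian blood, *Hoxa9* and *Meis1* are known for their role in stem and progenitor cells and decline as these mature.

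RNA-seq was performed on 2 sorted populations of zebrafish cells, with 1 library each. The first was EGFP+ lymphocytes from the thymus of Tg(cd8a:EGFP) fish at 6 weeks, labelled lck:mCherry+/CD8:EGFP+ and untreated (the methods give another age). The second was EGFP+ myeloid cells from melanoma of Tg(cd8a:EGFP;BRAFV600E;p53null;nacrenull) fish at 6 weeks, labelled as exposed for 24 h to SB431542, an inhibitor of the TGF-β receptor. In both, an upstream region of *cd8a* drove EGFP. The tumor-bearing fish lacked *mitfa* except where the MiniCoopR vector, which carries a *mitfa* minigene with a fluorophore, had been injected into embryos, and tumors arose from cells with that vector. Tissue, genotype, drug and library cannot be told apart in this design, and the number of animals pooled was not given in the sources used here.

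The reads assigned to genes numbered 32975680 for the thymus sample and 39446435 for the myeloid sample. Levels are counts per 1000000 of these reads (CPM), and genes were taken as expressed from 1 CPM upward. Intervals in parentheses are 95% intervals that cover counting error alone, since the cDNA was amplified and carried no molecular identifiers. Where no read was found, a level of up to 3 reads could not be seen, which is 0.0910 CPM for the thymus sample and 0.0761 CPM for the myeloid sample. Without replicates no p-value was computed, and a fold describes these libraries, not the conditions. Counts were not scaled by transcript length, so fold differences were taken only between the samples for a given gene or group. Shares of reads, counts of genes above 1 CPM and reads of paralogous copies are given unscaled and do not rank transcripts.

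The labels were checked against marker genes. All 11 T cell genes were expressed in the thymus sample, at a summed 11170 CPM, and *cd8a* and *lck* among them are the genes of the reporters named in the label. In the myeloid sample 3 of 11 were expressed at a summed 536 CPM, while *lck* and *cd8b* had 0 reads. A *CCR9* gene (ENSDARG00000055186) carried most of both sums, at 9049 CPM in the thymus sample and 529 CPM in the myeloid sample, where *cd8a* was at 4.13 CPM and *TCF7* at 2.10 CPM. Of 22 mononuclear phagocyte genes, 13 were expressed in the myeloid sample, at a summed 4036 CPM against 44.3 CPM in the thymus sample. *LGMN* carried most of both sums, at 2604 CPM in the myeloid sample and 43.4 CPM in the thymus sample. The myeloid sample also held melanocyte transcripts: 10 of 13 pigment cell genes were expressed at a summed 24863 CPM, against 1.49 CPM in the thymus sample. Of 12 muscle genes 6 were expressed in each library, at a summed 1887 CPM in the myeloid sample and 120 CPM in the thymus sample. Of 12 skin epithelium genes 5 were expressed in the myeloid sample, at a summed 256 CPM, and 3 in the thymus sample, at 457 CPM. Transcripts of pigment, muscle and skin cells were thus read in the myeloid sample, and their part in the Hox levels was not tested. In bulk RNA, a larger share of cells of a type and more RNA per cell cannot be told apart.

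Hox transcripts were nearly absent from the thymus sample and present in the myeloid sample. The 48 genes together had 64 reads in the thymus sample, or 1.94 CPM (1.49 to 2.48), and 10721 reads in the myeloid sample, or 272 CPM (267 to 277). The summed level was 140-fold higher in the myeloid sample (110 to 182). No Hox gene was expressed in the thymus sample, whereas 39.8% of all genes were. In the myeloid sample 13 of 48, or 27.1%, were expressed, against 33.0% of all genes, so that the share of expressed Hox genes was not above that of the genome. By a rule of size, at least 4-fold with 10 reads or more in the higher library, the same 13 genes (27.1%) were higher in the myeloid sample, against 10.8% of all genes. By the same rule 1 of 48 was higher in the thymus sample, against 22.3% of all genes. The plot of all 48 genes by cluster shows both libraries.

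**Figure D1:**
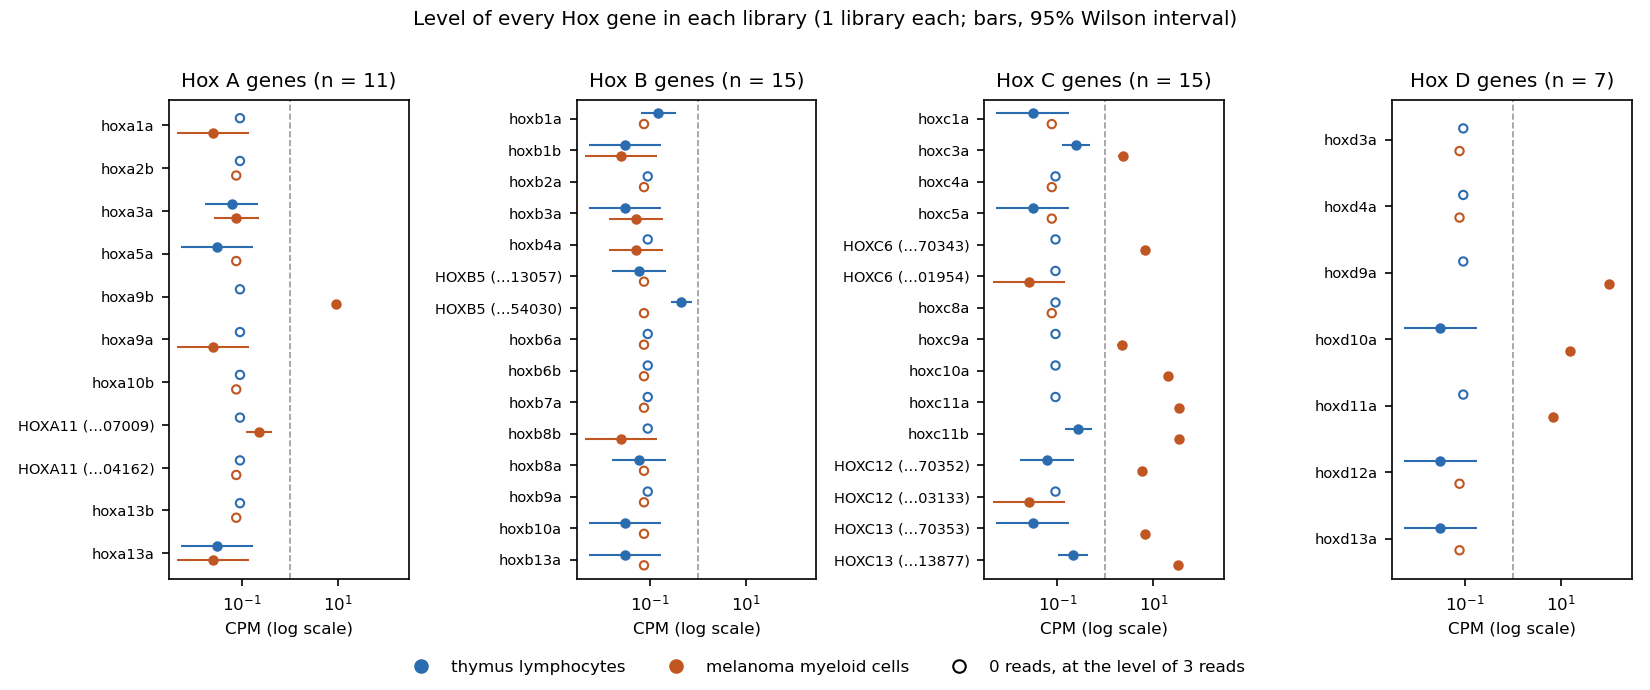
CPM of every Hox gene (log scale) in the thymus sample (blue) and the melanoma myeloid sample (orange), 1 library each, by cluster. Filled points carry 95% Wilson intervals of counting error, which are narrower than the point for genes with many reads; open points had 0 reads and are drawn at the level of 3 reads; the dashed line marks 1 CPM. All thymus points lie left of the line, and the 13 myeloid points right of it are 9 Hox C, 3 Hox D and 1 Hox A gene.

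The 13 expressed genes were unevenly placed. In the myeloid sample 9 of 15 Hox C genes, 3 of 7 Hox D genes and 1 of 11 Hox A genes were expressed, and 0 of 15 Hox B genes. Hox C genes had 52.4% and Hox D genes 44.1% of the Hox reads in that library, as shares of reads and not of transcripts. By position, 11 of 23 genes of paralog groups 9 to 13 were expressed, against 1 of 15 of groups 4 to 8 and 1 of 10 of groups 1 to 3. In RefSeq the Hox gene models that overlap one another lie below group 9, except *hoxc9a*. Overlap was taken here and below from the start and end of each gene model, introns included, and shared exons were not checked. Any reads set aside as ambiguous would thus be missing mainly from the lower groups, and their effect on this comparison was not tested. Groups 9 to 13 had 10360 reads in the myeloid sample, or 263 CPM (258 to 268), and 25 reads in the thymus sample, or 0.758 CPM (0.491 to 1.12). The posterior genes thus held 96.6% of the Hox reads of the myeloid sample. Within this posterior set, 7 of 8 Hox C genes and 3 of 5 Hox D genes were expressed, but 1 of 7 Hox A genes and 0 of 3 Hox B genes.

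**Figure D2:**
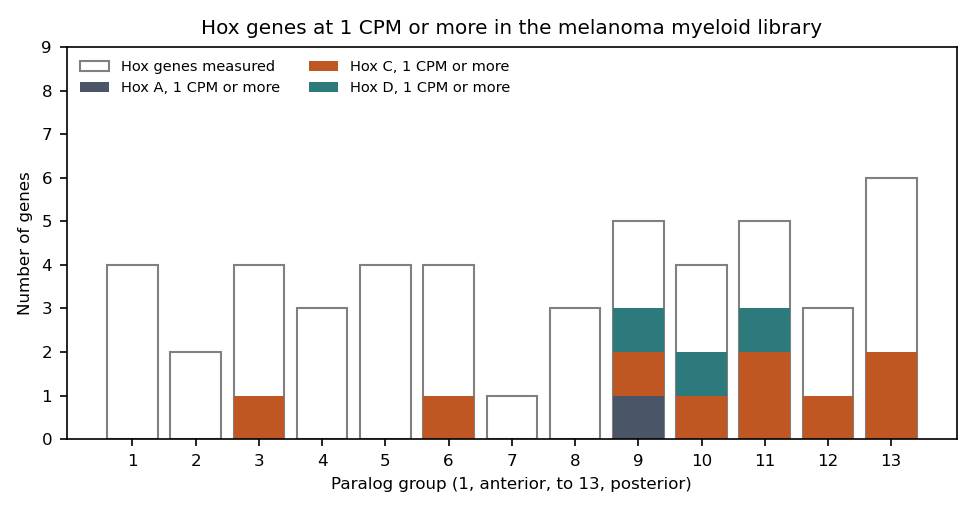
Number of Hox genes measured in each of the 13 paralog groups (open bars) and, within them, the number at 1 CPM or more in the melanoma myeloid sample, coloured by cluster. Of the 23 genes in groups 9 to 13, 11 were expressed, against 2 genes in groups 1 to 8, which were both Hox C genes. Overlapping gene models, where reads may be set aside as ambiguous, lie mainly in groups 1 to 8.

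In the single Hox D cluster, 3 neighbouring genes were expressed and the genes on either side of them were not. *hoxd9a* (ENSDARG00000059274) had 0 reads in the thymus sample and 3857 in the myeloid sample, or 97.8 CPM (94.7 to 101). Set against 3 reads, this was at least 1075-fold higher in the myeloid sample. *hoxd10a* (ENSDARG00000057859) had 1 read in the thymus sample and 601 in the myeloid sample, or 15.2 CPM (14.1 to 16.5), a ratio of 502 (89.8 to 19877). *hoxd11a* (ENSDARG00000059267) had 0 reads in the thymus sample and 268 in the myeloid sample, or 6.79 CPM (6.03 to 7.66), at least 74.7-fold higher. All 3 belong to the genes that pattern the caudal body and the paired appendages. The next genes toward the posterior end, *hoxd12a* and *hoxd13a*, each had 1 read in the thymus sample and 0 in the myeloid sample. The 2 anterior genes, *hoxd3a* and *hoxd4a*, had 0 reads in both. They overlap each other in the RefSeq gene models, so their counts are uncertain.

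Among the Hox C genes, those of groups 9 to 13 formed the expressed block. *hoxc9a* (ENSDARG00000092809) had 0 reads in the thymus sample and 86 in the myeloid sample, or 2.18 CPM (1.77 to 2.69), at least 24.0-fold higher. *hoxc10a* (ENSDARG00000070348) had 0 and 784 reads, and its 19.9 CPM (18.5 to 21.3) in the myeloid sample was at least 218-fold higher. *hoxc11a* (ENSDARG00000070351) had 0 and 1323 reads, and its 33.5 CPM (31.8 to 35.4) was at least 369-fold higher. In the thymus sample these 3 genes were thus below detection. Its duplicate *hoxc11b* (ENSDARG00000102631) had 9 reads in the thymus sample, or 0.273 CPM, and 1332 in the myeloid sample, or 33.8 CPM (32.0 to 35.6), a fold of 124 (65.0 to 271). Both copies of *hoxc11* were therefore read in the myeloid sample, while thymus reads were found on the b copy alone.

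*HOXC12* and *HOXC13* genes lie at the posterior end of the Hox C clusters, and in mammals *Hoxc13* is known for its role in hair and nails. The table of gene names lists 2 identifiers under each of these symbols without a zebrafish paralog letter. One *HOXC12* gene (ENSDARG00000070352) had 2 reads in the thymus sample and 223 in the myeloid sample, or 5.65 CPM (4.96 to 6.45), a ratio of 93.2 (25.5 to 774). The other (ENSDARG00000103133) had 0 and 1 read. For *HOXC13* both genes were expressed in the myeloid sample. ENSDARG00000070353 had 1 and 263 reads, or 6.67 CPM (5.91 to 7.52) in the myeloid sample, a ratio of 220 (39.1 to 8717). ENSDARG00000113877 had 7 and 1258 reads, or 31.9 CPM (30.2 to 33.7) in the myeloid sample, a fold of 150.2 (72.7 to 374).

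Of the 7 Hox C genes of groups 1 to 8, 2 were expressed. One *HOXC6* gene (ENSDARG00000070343) had 0 reads in the thymus sample and 260 in the myeloid sample, or 6.59 CPM (5.84 to 7.44), at least 72.5-fold higher, and the other (ENSDARG00000101954) had 0 and 1 read. *hoxc3a* (ENSDARG00000070339) had 8 reads in the thymus sample, or 0.243 CPM, and 90 in the myeloid sample, or 2.28 CPM (1.86 to 2.80). Its 9.40-fold difference (4.57 to 22.4) was the smallest of the 13. In the RefSeq gene models *hoxc3a* overlaps 5 other Hox C genes, *hoxc4a*, *hoxc5a*, *hoxc6a*, *hoxc8a* and *hoxc9a*, so its reads are uncertain, and so are those of *hoxc9a* and of the *HOXC6* genes. The counting step set aside 1159459 reads of the thymus sample as ambiguous between genes. *hoxc4a* and *hoxc8a*, which lie between expressed genes, had 0 reads in both libraries, which the overlap with *hoxc3a* leaves uncertain. *hoxc1a* and *hoxc5a* each had 1 read, in the thymus sample.

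In the Hox A clusters a single gene was expressed, and only in its b copy. *hoxa9b* (ENSDARG00000056819) had 0 reads in the thymus sample and 353 in the myeloid sample, or 8.95 CPM (8.06 to 9.93), at least 98.4-fold higher. *hoxa9a* (ENSDARG00000105013), the other zebrafish counterpart of mammalian *Hoxa9*, had 0 and 1 read. One *HOXA11* gene (ENSDARG00000007009) followed with 0 reads in the thymus sample and 9 in the myeloid sample, or 0.228 CPM (0.120 to 0.434), and its second copy (ENSDARG00000104162) had 0 in both. No further Hox A gene had more than 3 reads in either library.

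Hox B genes, several of which are expressed in mammalian blood progenitors, were near the limit of detection in both libraries. The 15 genes had 28 reads in the thymus sample, or 0.849 CPM (0.564 to 1.23), and 6 reads in the myeloid sample, or 0.152 CPM (0.0558 to 0.331). This was the only cluster letter with a lower sum in the myeloid sample, at a ratio of 0.179 (0.0606 to 0.441) of myeloid over thymus. Of the 28 thymus reads, 15 fell on one *HOXB5* gene (ENSDARG00000054030), which had 0 reads in the myeloid sample. Its 0.455 CPM (0.276 to 0.751) in the thymus sample was at least 5.98-fold higher, and it was the 1 Hox gene that met the rule of size in the thymus direction. With TMM library sizes it no longer met that rule, and the count was 0, against 18.9% of all genes. The other *HOXB5* gene (ENSDARG00000013057) had 2 and 0 reads. *hoxb1a* had 5 reads in the thymus sample and 0 in the myeloid sample. In RefSeq *hoxb1b* overlaps *hoxb5b*, and *hoxb3a* overlaps *hoxb5a*, so reads of the *HOXB5* genes are uncertain as well.

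Copies from the genome duplication differed within the myeloid sample. In 11 cases 2 genes of the tables shared a cluster letter and a group number. Both copies were expressed in 2 of these pairs, *HOXC11* and *HOXC13*. A single copy was expressed in 3 pairs, *HOXA9*, *HOXC6* and *HOXC12*, where the second copy had 1 read in each case. In 6 pairs neither copy was expressed. Reads that fit both copies of a pair would not have been assigned to either if they aligned to several places, and 6966482 reads of the thymus sample were set aside as not aligned uniquely. The myeloid table had no such summary counts.

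Some Hox genes had no read in either library, at a share close to that of all genes. Both libraries had 0 reads on 13 of 48 Hox genes, or 27.1%, against 23.3% of all genes. These were *hoxa2b*, *hoxa10b*, one *HOXA11* gene, *hoxa13b*, *hoxb2a*, *hoxb6a*, *hoxb6b*, *hoxb7a*, *hoxb9a*, *hoxc4a*, *hoxc8a*, *hoxd3a* and *hoxd4a*. In the RefSeq gene models *hoxb6a*, *hoxb6b*, *hoxc4a*, *hoxc8a*, *hoxd3a* and *hoxd4a* overlap other Hox genes. Reads in the overlaps may have been set aside as ambiguous, so 0 reads on these genes need not mean silence. With 3 reads or fewer in each library counted as silent, the number was 32 of 48, or 66.7%, against 39.8% of all genes. In the thymus sample 21 Hox genes had any read, of which 5 had 5 reads or more and 16 had 1 or 2 reads. The gap around the threshold was wide in the myeloid sample. Just above 1 CPM lay *hoxc9a* at 2.18 CPM and *hoxc3a* at 2.28 CPM, and just below lay a *HOXA11* gene at 0.228 CPM and *hoxa3a* at 0.0761 CPM. Genes of the miRNA families *mir10* and *mir196*, which lie within Hox clusters, had 1 read in the thymus sample and 0 in the myeloid sample over 10 identifiers. Library preparation for mRNA is not made to capture such short RNAs.

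TALE cofactor genes were read in both samples. Of 13 genes 6 were expressed in the thymus sample and 4 in the myeloid sample, and 1 was at least 4-fold higher in the myeloid sample (7.69%, against 10.8% of all genes) and 6 in the thymus sample (46.2%, against 22.3%). The gene listed as *MEIS1* (ENSDARG00000012078) had 4 reads in the thymus sample, or 0.121 CPM, and 3246 in the myeloid sample, or 82.3 CPM, a fold of 678 (265 to 2491). This was the only member called in the myeloid direction, and the other 3 genes expressed in the myeloid sample were also expressed in the thymus sample. *TGIF1* was at 144 CPM in the thymus sample and 185 CPM in the myeloid sample. *pbx2* was read at 76.2 CPM in the thymus sample and 62.5 CPM in the myeloid sample. *pbx4* was 10.9-fold higher in the thymus sample (10.02 to 11.8), at 173 against 15.9 CPM. *PBX3* had 296 and 4 reads and *PKNOX2* had 912 and 6 reads, both higher in the thymus sample. Pbx proteins form the DNA-binding partners of most Hox proteins, and the thymus sample thus had Pbx transcripts beside almost no Hox reads. The median log2 ratio of myeloid over thymus for the list, with 1 CPM added to both, was −0.28, against −0.73 over the 15139 genes expressed in either library and 0 over all genes.

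Regulators of Hox chromatin were also compared. Of 17 Trithorax and MLL genes, which maintain Hox expression, 16 were expressed in the thymus sample and 15 in the myeloid sample. By the rule of size 8 (47.1%, against 22.3% of all genes) were higher in the thymus sample and 1 (5.88%, against 10.8%) in the myeloid sample, and the median log2 ratio was −1.40, against −0.73 over expressed genes. *kmt2a* had 11392 reads in the thymus sample, or 345 CPM, and 76 in the myeloid sample, or 1.93 CPM, a fold of 179 higher in the thymus sample (143 to 228). *MEN1*, the gene of menin, which tethers Kmt2a to chromatin, was at 123 and 32.9 CPM. The gene of the MLL partner *MLLT10* was at 165 and 7.35 CPM. Of these 3, *kmt2a* and *MLLT10* met the rule of size and *MEN1* did not. Other members had the higher level in the myeloid sample. *psip1a*, the 1 gene called in that direction, was at 1.39 CPM in the thymus sample and 11.7 CPM in the myeloid sample. *DPY30*, which encodes a shared subunit of the MLL complexes, was at 9.70 and 24.2 CPM, a fold of 2.50 (2.20 to 2.84), and *psip1b* was at 59.2 and 65.2 CPM.

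Polycomb genes, which repress Hox genes, were read in both samples. Of 21 genes 20 were expressed in the thymus sample and 18 in the myeloid sample, and 4 were called in each direction. This was 19.0% each way, against 22.3% of all genes for the thymus direction and 10.8% for the myeloid direction. Their summed level was 1576 CPM in the thymus sample and 1572 CPM in the myeloid sample, and the median log2 ratio was −0.09. With TMM library sizes the median was 0.43 and 6 were called in the myeloid direction (28.6%, against 13.2% of all genes with that scaling). The methyltransferase gene *ezh1* was at 1.55 CPM in the thymus sample and 39.4 CPM in the myeloid sample, a fold of 25.5 (19.3 to 34.4), whereas *EZH2*, its counterpart in dividing cells, was at 103 and 35.1 CPM. One *BMI1* gene (ENSDARG00000006010) had 1003 and 2 reads, and the other (ENSDARG00000013076) was at 11.3 CPM in the thymus sample and 38.2 CPM in the myeloid sample. *phc2b* was at 2.76 and 55.0 CPM. Of the 4 genes of demethylases that remove the Polycomb mark H3K27me3, 3 were called higher in the thymus sample (75%, against 22.3% of all genes). These were *KDM6B* at 554 CPM in the thymus sample and 37.8 CPM in the myeloid sample, *KDM6A* at 129 and 0.989 CPM, and *kdm6al* at 11.04 and 0.304 CPM. The fourth, *kdm6bb*, was at 74.5 and 57.7 CPM and was not called.

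**Figure D3:**
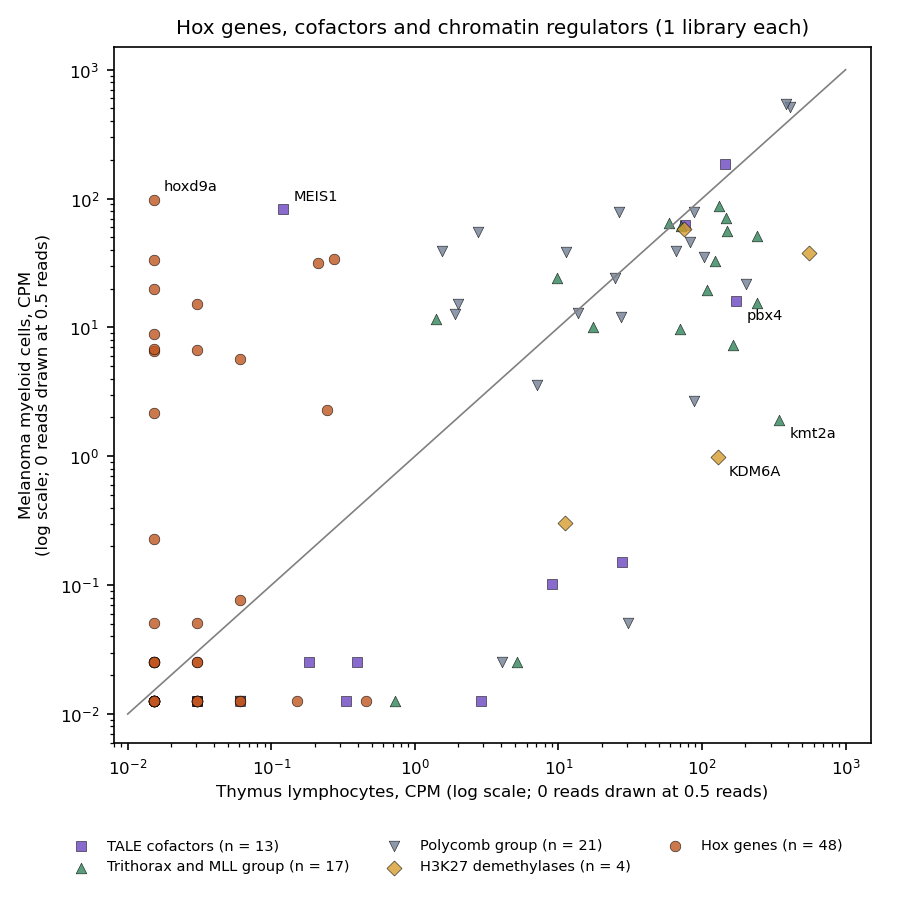
CPM in the thymus sample (x axis) and the melanoma myeloid sample (y axis), both on log scales, of the 48 Hox genes, 13 TALE cofactors, 17 Trithorax and MLL genes, 21 Polycomb genes and 4 H3K27 demethylases. Each point is a gene, the line marks equal levels, and a gene with 0 reads is drawn at the value of 0.5 reads. The 13 expressed Hox genes and *MEIS1* lie at the upper left, whereas most chromatin genes lie at high values of both axes and *kmt2a* and *KDM6A* well below the line.

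Cdx proteins regulate Hox genes in embryos, and the Evx, Gbx, Meox and ParaHox genes are related homeobox genes. Of 14 genes of these families 1 was expressed in the thymus sample, a gene listed as *EVX1* (ENSDARG00000100087) with 93 reads there and 0 in the myeloid sample. None was expressed in the myeloid sample. *evx2*, which lies beside *hoxd13a*, had 1 read in the thymus sample and 2 in the myeloid sample. Retinoic acid, which is made by Aldh1a enzymes and bound by Rar and Rxr receptors, is a known inducer of anterior Hox genes. Of 19 genes of this pathway 5 were called in each direction, or 26.3% each, against 22.3% of all genes for the thymus direction and 10.8% for the myeloid direction. *ALDH1A2* had 1 and 227 reads, or 5.75 CPM in the myeloid sample, and *rxrga* was at 2.15 and 108 CPM. A gene of the retinoic acid binding protein, *CRABP2* (ENSDARG00000030449), had 1 read in the thymus sample and 21322 in the myeloid sample, or 541 CPM. *RXRA* (ENSDARG00000057737) had 2789 and 4 reads, at 84.6 and 0.101 CPM, and *rarab* was at 78.1 and 1.37 CPM. *RXRB* (ENSDARG00000078954) at 120 and 10.8 CPM and *rxrgb* with 239 and 3 reads were also called higher in the thymus sample. Among the receptor genes not called, *RARG* (ENSDARG00000034117) was at 112 and 96.2 CPM and *rxrbb* at 90.04 and 66.9 CPM.

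A further list held 24 homeobox genes outside the clusters, chosen mainly for blood and lymphocytes. Of these, 14 were expressed in the thymus sample and 9 in the myeloid sample, and 11 were called higher in the thymus sample (45.8%, against 22.3% of all genes) and 3 in the myeloid sample (12.5%, against 10.8%). *SATB1* (ENSDARG00000062621), a chromatin organizer of thymocytes, had 5499 reads in the thymus sample, or 167 CPM, and 0 in the myeloid sample, at least 2193-fold higher. *zeb1a* had 3902 and 2 reads. In the other direction an *IRX1* gene (ENSDARG00000101831) had 2 reads in the thymus sample and 2189 in the myeloid sample, or 55.5 CPM, and *HOPX* was at 15.01 and 99.2 CPM.

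The genes that flank the clusters were read far more widely than the Hox genes between them. For the 2 nearest matched genes on each side of the 7 clusters, in RefSeq order, 19 of 28 were expressed in the thymus sample, 19 in the myeloid sample and 16 in both. Over all genes, 39.8% were expressed in the thymus sample and 33.0% in the myeloid sample. That set is not alike, since the flanking genes all code for protein and have a matched symbol. All genes also include miRNA genes and identifiers without a symbol. Protein-coding genes without a match were passed over beside several clusters. For example, 1 each lay nearer than *hibadha*, *nr1d4a* and *atp5mc3a*, and 4 lay nearer than *tril*, which flanks *hoxa13a*. A gene named as beside a Hox gene thus need not be the next one. Beside the Hox C genes, *cbx5*, which encodes a heterochromatin protein, was at 153.7 CPM in the thymus sample and 158 CPM in the myeloid sample. Beside the Hox D genes, *nfe2l2a* was at 194 and 149.8 CPM and *atp5mc3a* at 93.9 and 146 CPM. The remaining flanking genes there were near the limit of detection, *evx2* with 1 and 2 reads and *hnrnpa3* with 3 and 0 reads. At the ends of the cluster *hoxd3a* had 0 reads in both libraries and *hoxd13a* had 1 read. Of the 28, 7 were called higher in the myeloid sample (25%, against 10.8% of all genes) and 5 in the thymus sample (17.9%, against 22.3%). *hibadha*, beside *hoxa13a*, had 2 and 879 reads. *skap2*, which encodes an adaptor protein and lies beside *hoxa2b*, had 197 and 1088 reads, a 4.62-fold difference (3.96 to 5.40). *skap1*, the gene of a T cell adaptor beside *hoxb5b*, had 880 reads in the thymus sample and 0 in the myeloid sample, at least 351-fold higher. *nr1d4a*, beside *hoxc13a*, had 361 and 0 reads. Flanking genes therefore did not share the direction of the nearest Hox genes throughout. The gene *nr1d4a* was higher in the thymus sample, while both *HOXC13* genes were higher in the myeloid sample.

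**Figure D4:**
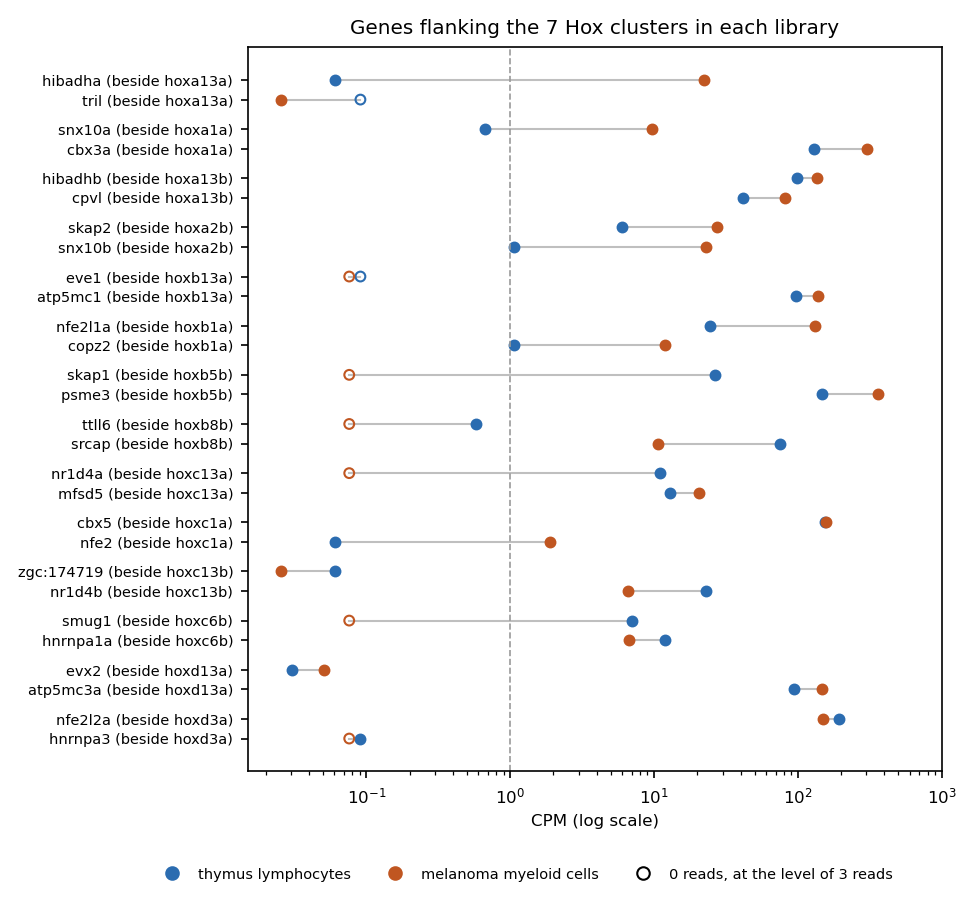
CPM (log scale) of the 2 nearest matched genes on each side of the 7 Hox clusters in the thymus sample (blue) and the melanoma myeloid sample (orange), 1 library each. Open points had 0 reads and are drawn at the level of 3 reads, the grey line joins both libraries and the dashed line marks 1 CPM. In each library 19 of 28 genes lie at or above 1 CPM.

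Marker lists of other cells were read beside the Hox genes. Hox genes are expressed in many tissues of the trunk as well as in blood cells. In the myeloid sample the pigment genes *TYRP1* (ENSDARG00000056151) and *pmela* had 661837 and 216337 reads and *SOX10* had 1877, whereas in the thymus sample they had 1, 28 and 0 reads. The skin list went both ways. Of 12 genes 4 were called higher in the myeloid sample (33.3%, against 10.8% of all genes). A further 2 were called higher in the thymus sample (16.7%, against 22.3%). *cdh1* was at 142 CPM in the myeloid sample and 0.0910 CPM in the thymus sample and *krt4* at 42.4 and 2.49 CPM, whereas *cldni* had 846 and 13869 reads and *TP63* had 30 and 1074. The muscle list was also mixed, with 4 of 12 called higher in the myeloid sample and 2 in the thymus sample. These are the same shares as for the skin list, 33.3% and 16.7%, against 10.8% and 22.3% of all genes. *actc1b* was at 1374 CPM in the myeloid sample and 45.7 CPM in the thymus sample and *ckma* at 474 and 4.55 CPM, whereas *myhz2* had 1 and 425 reads and a *TNNT3* gene (ENSDARG00000068457) had 1 and 286. Fibroblast markers were low in sum, at 17.2 CPM in the thymus sample and 8.85 CPM in the myeloid sample. In each library 2 of 14 genes were expressed. Of the 14, 1 was called higher in the myeloid sample (7.14%, against 10.8% of all genes). In the thymus direction 2 were called (14.3%, against 22.3%). *PDGFRB* had 9 reads in the thymus sample and 215 in the myeloid sample, or 5.45 CPM there. *COL1A2* had 12 and 3 reads and a *PRRX1* gene (ENSDARG00000042027) had 214 and 0, both higher in the thymus sample. *DCN* had 0 reads in both, and *col1a1a* had 3 and 6 reads. Of 10 endothelial genes 2 were expressed in the thymus sample and 0 in the myeloid sample, at a summed 5.55 and 0.304 CPM. Erythroid genes had a summed 0.455 and 31.5 CPM, with 2 of 7 expressed in the myeloid sample. Of 8 thymic epithelial genes, 1 was expressed in the thymus sample and 2 in the myeloid sample, where *krt8* alone was at 316 CPM, and *foxn1*, which defines that epithelium, had 0 and 2 reads. Blood progenitor genes were read in both, with 3 of 12 expressed in each library, and *GATA2* had 1 and 1114 reads while *MYB* had 7238 and 1. Whether the Hox reads came from myeloid, pigment, skin, muscle or other cells was not tested.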

How the data were processed

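The authors sorted the cells, amplified 1 ng of RNA with a SMART-Seq kit, made Nextera XT libraries and deposited raw counts of reads per gene. The labels' processing notes name cutadapt, STAR, HTSeq and GRCz11, whereas the methods name TopHat, GRCz10 and Cufflinks. The annotation release, strand setting and counting options are not given in the sources used here. Summary counts (28.4% of the thymus reads, none in the myeloid table) were left out of the totals.

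Symbols came from a table of gene names that matched 29201 of 32520 identifiers. Of the 48 Hox identifiers, 33 were listed without a paralog letter. In all, 38 received 1 zebrafish name, directly or by elimination against RefSeq (GRCz12tu), and 10 in 5 pairs stayed unresolved. RefSeq was used for names, order and overlap only.

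CPM, Wilson intervals of single genes, exact Poisson intervals of sums and exact conditional binomial intervals of ratios were calculated (Python 3.11.15, scipy 1.17.1, pandas 2.3.3, numpy 2.4.6). A library with 3 reads or fewer was set at 3 reads in the rule of size. The rule was tested on simulated Poisson counts, with changes planted only in genes of higher expected counts. Recovery of changes at low counts and variation between libraries were thus not tested. Figures were drawn with matplotlib 3.10.9. Alternatives were thresholds of 0.5 and 5 CPM, a 2-fold rule, filters on low counts and scaling by edgeR 4.0.16 (TMM), DESeq2 1.42.0 size factors (R 4.3.3) or totals that omit the 10 most-read genes of each library. The text names every Hox gene with 10 reads or more in either library, other Hox genes where their cluster is described, members of the gene lists with 10 reads or more, defining markers near 0 and flanking genes. The members and lists were chosen with earlier results of these data known.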

Additional observations from a re-analysis of the deposited data

How the results depend on the processing

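The 13 Hox genes expressed in the myeloid sample stayed 13 at 0.5 CPM and under each scaling and became 11 at 5 CPM, and the count in the thymus sample stayed 0 under each of these settings. The 13 genes higher in the myeloid sample stayed 13 under each scaling, with a 2-fold rule and without the minimum of 10 reads. Over all genes the share called in that direction was 10.8% with totals and 13.2% with TMM. The count higher in the thymus sample, 1, became 0 with TMM library sizes, where 18.9% of all genes were called in that direction. The 13 genes silent in both libraries became 32 with 3 reads or fewer. The summed Hox level in the myeloid sample was 272 CPM and moved to 333 with TMM, 327 with size factors of DESeq2 and 308 when the 10 most-read genes of each sample were omitted. In the thymus sample it was 1.94 CPM and became 1.30 over genes with 10 reads or more in either library. Scaling shifted every log2 ratio of myeloid over thymus by 0.58 with TMM, 0.54 with DESeq2 and 0.08 without those 10 genes. Each shift was toward the myeloid sample. The 13 Hox genes already higher there could thus not change direction or lose their call, and the scalings do not test it. The median ratio of the Polycomb list changed sign with TMM (0.43) and DESeq2 (0.39), and that of the retinoic acid list with both (0.04). That of the Trithorax list stayed below 0 (−0.82 with TMM). A scaling per coding length was not run because no lengths were used here. No paired analysis was possible because each group had 1 library, and no replicate could be left out. A gene with 0 reads could lie anywhere up to 3 reads, and the rule of size needed 10 reads or more in the higher library.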
